A study of Sus scrofa with 6 samples.

Results

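The transcripts described here are those of the nuclear pore proteins (nucleoporins) and of the soluble receptors that carry cargo through the pore, in pig oocytes. Members were the rows of the deposited gene table whose names begin with NUP, KPNA, KPNB or IPO and a number, or with XPO or TNPO, with at least 10 reads in at least 3 of the 6 libraries. All 44 rows with such a name met the count minimum, out of 19296 rows in the table, and all 44 entered the test. They comprised 21 nucleoporins, 17 importins and 6 exportins. The member nearest the minimum was NUP210L, with 21 to 119 reads per library. No row with such a name fell below it.

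The oocytes came from large follicles, 3 to 6 mm across (LO), and from small follicles, 1.5 to 1.9 mm across (SO). The ovaries were those of prepubertal gilts collected at an abattoir. The labels name no treatment, and the cumulus cells had been removed before RNA was isolated from pools of oocytes. Each group had 3 libraries, and the series asks how transcripts differ between oocytes of different developmental competence.

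Nucleoporins form a scaffold of stacked rings in the nuclear envelope, with a central channel filled by flexible repeat domains, filaments on the cytoplasmic side and a basket on the nuclear side. Importins bind cargo in the cytoplasm and release it in the nucleus when they meet the GTP-bound form of the small GTPase Ran, and exportins work in the opposite direction. Classical nuclear localisation signals are read by importin alpha, which rides with importin beta. The fully grown oocyte holds a very large nucleus, the germinal vesicle, and stores maternal messengers for the embryo.

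Total counts were 8015357 to 56887282 in LO libraries and 33298449 to 55342036 in SO libraries. LO library 3 was the shallowest, and it stood apart on principal component 1 (39.2% of the variance), with a score of 54.5 where the other 5 libraries had -15.0 to -6.03. Results that rest on it are given with and without it. The 8 oocyte markers checked, among them ZP3 and GDF9, were all present at 82.1 to 8624 TPM (a share of all transcripts that takes gene length into account). Their summed level was 23378 to 26914 TPM in LO libraries, below the 32869 to 34545 TPM of SO libraries. The 10 granulosa and cumulus markers found in the table summed to 17.8 to 50.3 TPM in LO and 10.8 to 71.6 TPM in SO libraries, with 7 of the 10 under a mean of 1 TPM and none without reads. The labels do not state whether replicate libraries came from different ovary collections, and their spread, on which every p-value rests, may be technical only. In bulk RNA of pooled oocytes, less of a transcript per oocyte and fewer oocytes that hold it cannot be told apart.

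The family was highly expressed but very uneven. Its 44 members together made up 0.934% ± 0.0916 of all TPM in LO and 0.946% ± 0.0165 in SO oocytes (SD, n = 3 each). The importin alpha gene KPNA7 and the nucleoporin gene NUP214 were the 2 members among the 100 transcripts with the highest TPM. These 2 members ranked 17 and 63 of the 19271 rows whose name is not a date. Of the others, NUP35, NUP85, XPO6, KPNA6 and KPNA3 followed in that order. In all, 15 members had a mean over 100 TPM, 9 lay under 20 TPM and 2 under 5 TPM. The median member stood at 81.4 TPM, against 18.4 TPM for all genes tested, and 36 of the 44 lay above that value.

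**Figure D1:**
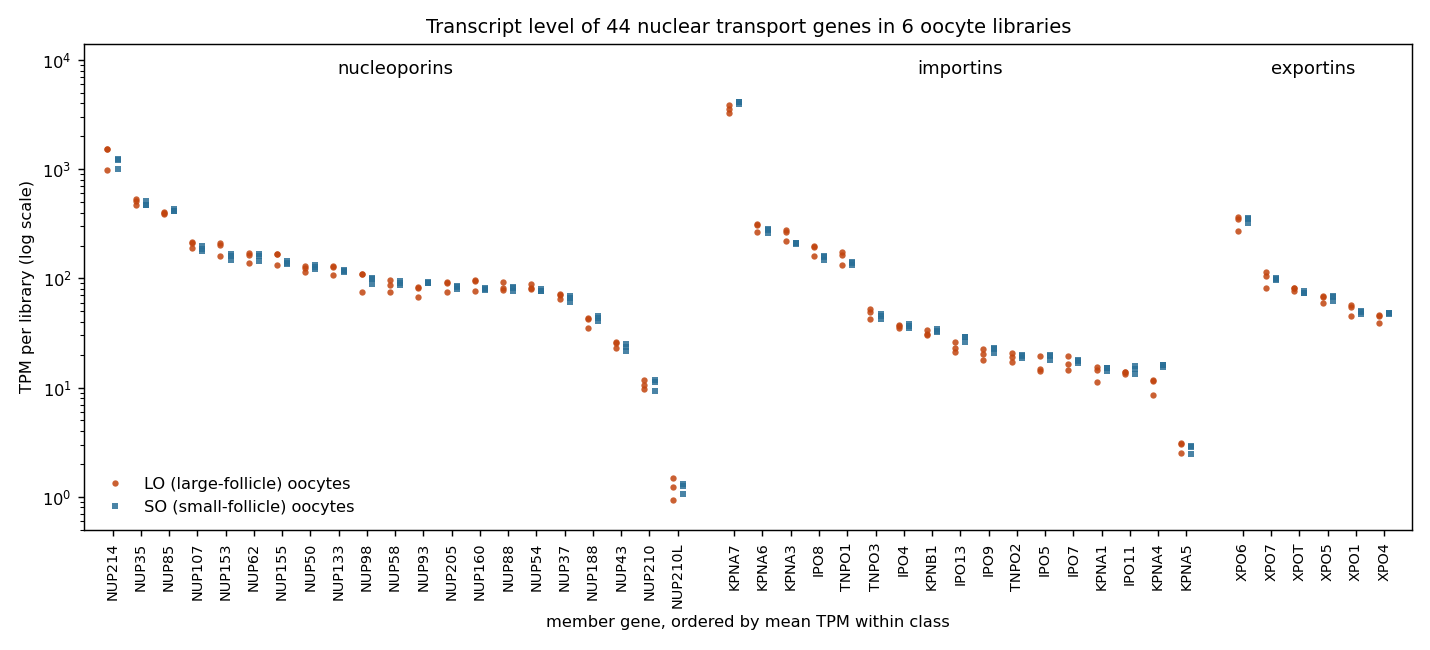
TPM of each member in each library on a log axis, grouped into nucleoporins, importins and exportins and ordered by mean TPM (circles, 3 LO libraries; squares, 3 SO libraries). KPNA7 stands highest, NUP214 next, and NUP210L lowest at a mean of 1.21 TPM.

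No member passed the test between the groups. In edgeR's quasi-likelihood test, adjusted by Benjamini and Hochberg's method, 0 of 44 members had an adjusted p under 0.05, where 9 of all 14091 genes tested did (0.0639%). Log2 differences, large minus small follicles, ran from -0.55 (KPNA4) to 0.29 (KPNA3), with 23 members positive and 21 negative (20 and 24 when scaled by library size alone). Their median was 0.028, beside 0.0039 over all genes tested. At an unadjusted p under 0.05 there were 7 members (15.9%), of which 3 were higher and 4 lower in LO oocytes, while 18% of all genes were under that value (9.85% higher and 8.17% lower). In 7 members (15.9%) the normalised values of the groups did not overlap, 2 with higher and 5 with lower values in LO oocytes. Over all genes 23.7% did not overlap (12.1% higher and 11.6% lower), so these shares of the members lay near or below those of the whole table.

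DESeq2 called 679 of the 10304 genes it tested (6.59%), and among the 43 members it tested KPNA3, higher, and KPNA4, lower. Without LO library 3, edgeR called 1899 of 14429 genes (13.2%, with 7.79% higher and 5.37% lower) and 8 members (18.2%). These comprised 7 with higher levels in LO oocytes (NUP214, NUP153, NUP155, NUP160, KPNA3, IPO8 and TNPO1) and KPNA4 with a lower level. Both members called by DESeq2 were among these 8. With LO library 3 left out, 27 of the 44 members had a positive difference. Their median was 0.040, beside -0.0077 over all genes tested.

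**Figure D2:**
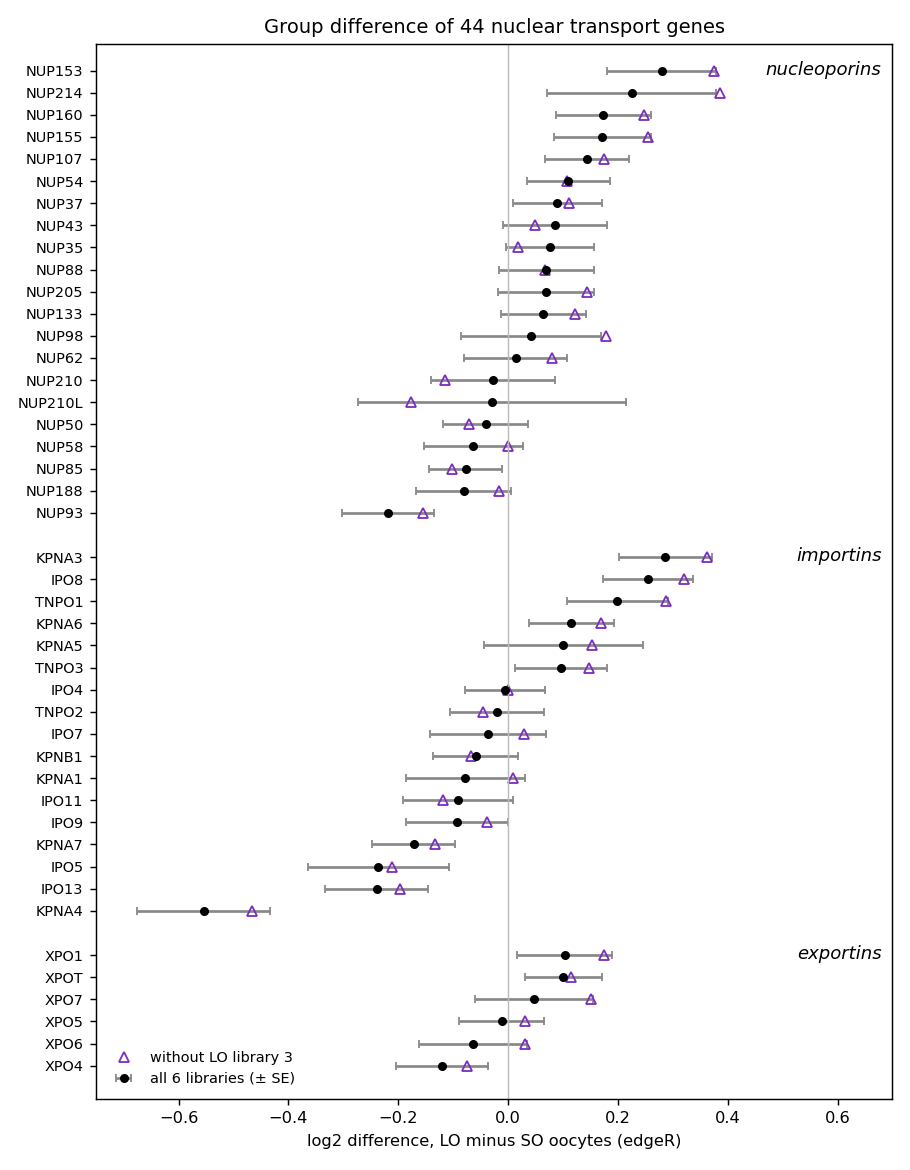
Log2 difference between LO and SO oocytes for each member, from all 6 libraries (points, bars are SE) and without LO library 3 (triangles). KPNA4 lies farthest to the left at -0.55, and NUP153, NUP214, KPNA3, IPO8 and TNPO1 lie to the right in both fits.

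Among the cargo adaptors, KPNA7 dominated. KPNA7 is an importin alpha whose messenger is largely restricted to oocytes and early embryos in mammals. Its gene lies on chromosome 3 from 6167382 to 6201282 in the pig assembly Sscrofa11.1. It had 3562, 3888 and 3277 TPM in LO libraries 1, 2 and 3, against 3944, 4110 and 4083 TPM in SO libraries 1, 2 and 3. On the scale used for the test, CPM (read counts per 1000000 reads of effective library size), it had 2286, 2428 and 2131 in LO and 2487, 2653 and 2573 in SO libraries. All 3 LO libraries were below all 3 SO ones. The log2 difference was -0.17 (SE 0.075) and did not pass (edgeR, adjusted p = 0.267). Without LO library 3 it was -0.13 (SE 0.072). The summed oocyte markers were also lower in all 3 LO libraries, and their part in the KPNA7 difference was not tested.

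The other importin alpha genes ranged widely in level on the TPM scale. KPNA2, the importin alpha best known from dividing cells, is outside the naming rule because the table lists it by an Ensembl identifier. It lies on chromosome 12 from 14283092 to 14296749. It stood at 1325, 1268 and 1319 TPM in LO and 1173, 1273 and 1223 TPM in SO libraries, rank 61 of all rows. In CPM it had 1273, 1186 and 1285 in LO and 1108, 1230 and 1155 in SO libraries. These groups overlapped, and the log2 difference of 0.10 (SE 0.073) did not pass (edgeR, adjusted p = 0.498). KPNA6, of the subfamily that also holds KPNA1 and KPNA5, averaged 295 ± 27.9 TPM in LO and 274 ± 11.3 TPM in SO oocytes (SD, n = 3 each). In CPM KPNA6 had 597, 603 and 523 in LO and 537, 514 and 541 in SO libraries, which overlapped, with a log2 difference of 0.12 (SE 0.077). KPNA1 averaged 14.3 TPM and KPNA5 2.83 TPM over all libraries, and neither passed, with log2 differences of -0.078 (SE 0.11) and 0.10 (SE 0.15).

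Within the 7 importin alpha genes, KPNA7 supplied 64.9%, 67.3% and 64.2% of the summed TPM in LO libraries and 69.9%, 69.9% and 70.0% in SO libraries. KPNA2 supplied 24.1%, 21.9% and 25.9% in LO and 20.8%, 21.6% and 21.0% in SO libraries. The KPNA7 share was lower in every LO library, and the KPNA2 share was higher in every LO library. Together this pair made up 89.0% to 90.1% of importin alpha TPM in LO and 90.7% to 91.5% in SO libraries. These shares were looked at after the values were seen and are given as a description. Importin alpha transcripts far outnumbered those of their partner KPNB1, importin beta. KPNA7 had 106 to 128 times the TPM of KPNB1 in LO libraries and 115 to 128 times in SO libraries.

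KPNA3 and KPNA4, close paralogs that form one importin alpha subfamily, had differences of opposite sign and were the members with the smallest p. KPNA4, on chromosome 13 from 100185081 to 100253077, was read 277, 741 and 82 times in LO libraries and 1000, 641 and 749 times in SO libraries. That gave 13.4, 13.4 and 10.1 CPM in LO libraries, against 17.7, 19.0 and 18.7 CPM in SO libraries. Every LO value was below every SO value. KPNA4 was 0.681-fold in LO relative to SO oocytes (log2 difference -0.55, SE 0.12), with an adjusted p of 0.0970 by edgeR. Its log2 difference without LO library 3 was -0.47 (SE 0.097) and its adjusted p 0.0144. Over all alternatives run the difference stayed between -0.62 and -0.47, and the adjusted p ran from 0.00472 (DESeq2) to 0.418.

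KPNA3, on chromosome 11 from 17948210 to 18033818, had 443, 444 and 367 CPM in LO libraries, against 344, 341 and 345 CPM in SO libraries. Here every LO value was above every SO value, and the SO libraries lay within a few CPM of each other. KPNA3 was 1.22-fold in LO relative to SO oocytes (log2 difference 0.29, SE 0.085; edgeR, adjusted p = 0.142). The difference without LO library 3 was 0.36 with an adjusted p of 0.00872, and over all alternatives it was 0.23 to 0.36 with adjusted p of 0.00872 to 0.463. On the TPM scale the ratio of KPNA4 to KPNA3 was 0.0427, 0.0425 and 0.0388 in LO libraries and 0.0725, 0.0784 and 0.0761 in SO libraries. This ratio had to separate the groups, library 3 included, because KPNA4 was lower and KPNA3 higher in every LO library. It was chosen after the values were seen, so it carries no test. How the authors assigned reads shared by paralogs is not given in the sources used here, and KPNA3 overlaps another RefSeq gene, LOC102166873.

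**Figure D3:**
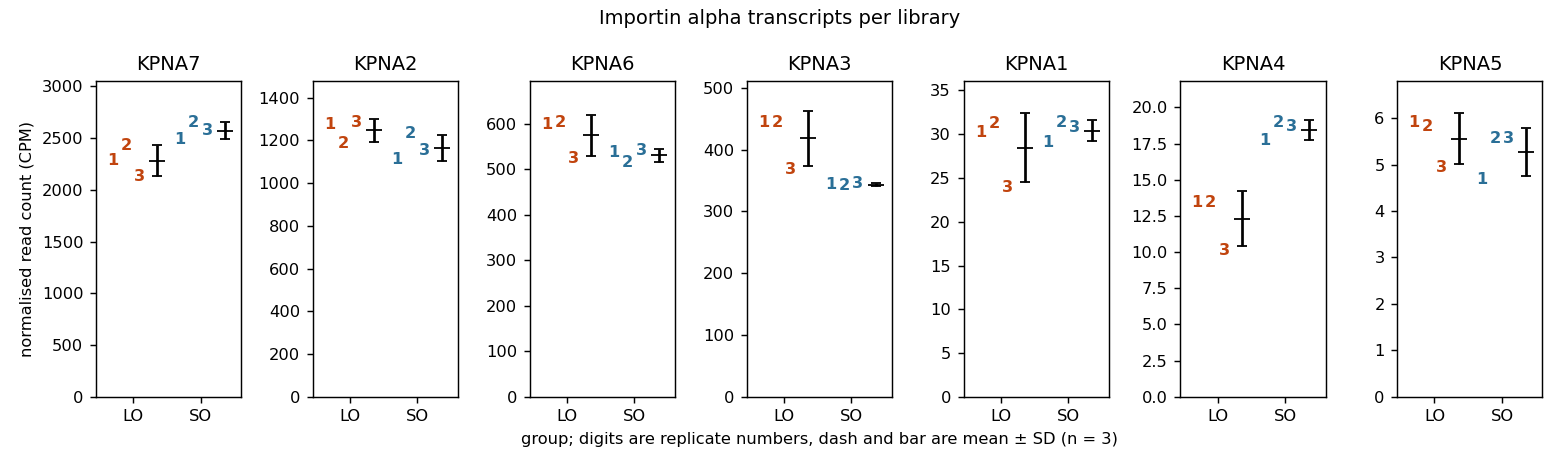
Normalised read count (CPM, axes from 0) of the 7 importin alpha genes in LO (left) and SO (right) oocytes. Digits mark replicates and the dash with bar is mean ± SD (n = 3). KPNA4 and KPNA7 are lower and KPNA3 higher in every LO library, and the groups of the other 4 genes overlap.

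Except for IPO8, importin beta and the IPO genes lay below the 81.4 TPM of the median member, and none passed between the groups. KPNB1 had 68.0, 60.4 and 64.0 CPM in LO and 68.7, 65.9 and 65.6 CPM in SO libraries, which overlapped, for a log2 difference of -0.059 (SE 0.077). IPO8, which in other cells carries SMAD and Argonaute proteins, was the most abundant IPO gene at a mean of 169 TPM. It had 315, 311 and 265 CPM in LO libraries, against 252, 241 and 255 CPM in SO libraries, with no overlap. Its log2 difference of 0.25 (SE 0.082) did not pass (edgeR, adjusted p = 0.161). With LO library 3 left out it was 0.32 with an adjusted p of 0.0124, the lowest of the alternatives, which reached 0.495.

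IPO13, a receptor that both imports and exports cargo, had 49.1, 42.3 and 40.0 CPM in LO libraries, against 53.0, 49.3 and 53.2 CPM in SO libraries. The highest LO value lay just under the lowest SO value, and the log2 difference was -0.24 (SE 0.094; edgeR, adjusted p = 0.223). Without LO library 3 the difference of IPO13 was -0.20 (SE 0.088). Of the 7 IPO genes 6 had a negative difference, with IPO8 as the exception, under each scaling tried with all 6 libraries. Without LO library 3 the sign of IPO7 changed, to 0.029, and IPO4 was at -0.00081. The median of the 7 was then -0.039 in place of -0.091. Over all alternatives IPO4 reached 0.021. IPO4, IPO5, IPO7 and IPO9, importers of ribosomal proteins or histones, had log2 differences of -0.0058, -0.24, -0.037 and -0.093, and IPO11 one of -0.091. None of these 5 passed or had an unadjusted p under 0.05.

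Transportins read signals other than the classical one. TNPO1, the receptor of hnRNP A1 and related RNA-binding proteins, had 445, 457 and 363 CPM in LO libraries, against 372, 362 and 369 CPM in SO libraries. LO libraries 1 and 2 were higher, and library 3 fell among the SO values. The log2 difference was 0.20 (SE 0.092; edgeR, adjusted p = 0.290). Without LO library 3 it was 0.29, with an adjusted p of 0.0160, and the alternatives reached 0.615. TNPO3, the importer of SR splicing factors, differed by 0.096 (SE 0.084) and TNPO2, the paralog of TNPO1, by -0.020 (SE 0.085). TNPO1 averaged 147 TPM over all libraries, TNPO3 46.5 TPM and TNPO2 19.1 TPM.

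Log2 differences of the 6 exportins lay between -0.12 and 0.10. XPO6, which carries actin out of the nucleus and is scarce in Xenopus oocytes, was the most abundant at a mean of 337 TPM. It had 654, 613 and 503 CPM in LO and 627, 589 and 635 CPM in SO libraries. The lowest value was that of LO library 3, the groups overlapped, and the log2 difference was -0.064 (SE 0.098). XPO7 had 173, 155 and 125 CPM in LO and 148, 147 and 145 CPM in SO libraries, a log2 difference of 0.048 (SE 0.11). Its LO libraries lay on both sides of the SO ones. XPOT, the exporter of transfer RNA, had 131, 129 and 124 CPM in LO and 116, 125 and 117 CPM in SO libraries, a log2 difference of 0.10 (SE 0.070). Only XPOT's LO library 3 lay within the SO range.

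XPO1, the general exporter of proteins with leucine-rich signals, averaged 173 ± 18.5 CPM in LO and 162 ± 3.48 CPM in SO oocytes (SD, n = 3 each), a log2 difference of 0.10 (SE 0.087). XPO5, the exporter of microRNA precursors, differed by -0.012 (SE 0.077) on the log2 scale. XPO4 averaged 44.1 ± 3.53 CPM in LO and 48.2 ± 1.33 CPM in SO oocytes (SD, n = 3 each). No exportin had an unadjusted p under 0.05, and none had groups without overlap.

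NUP214 stood far above every other nucleoporin. It is the repeat-bearing protein of the cytoplasmic side, where it works with NUP88 and is a docking point for XPO1. Its gene lies on chromosome 1 from 271103838 to 271210292. It had 1529, 1516 and 987 TPM in LO libraries, against 1218, 999 and 1247 TPM in SO libraries, and took 28.7% to 36.6% of nucleoporin TPM in LO and 28.2% to 32.8% in SO libraries. By CPM, which does not divide by length, it ranked 5 of all rows. It had 4601, 4439 and 3010 CPM in LO and 3603, 3023 and 3685 CPM in SO libraries. LO libraries 1 and 2 were highest, while LO library 3 and SO library 2 were lowest and nearly equal.

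The log2 difference of NUP214 was 0.22 (SE 0.15) and did not pass (edgeR, adjusted p = 0.468). On leaving out LO library 3 it was 0.39 with an adjusted p of 0.0244. Over the alternatives it ran from 0.12 to 0.39 and its adjusted p reached 0.811, so 1 library decides whether this gene passes. Its partner NUP88 was far less abundant, and the ratio of NUP214 to NUP88 on the TPM scale was 16.7, 19.4 and 12.1 in LO and 15.9, 12.1 and 15.3 in SO libraries. NUP88 averaged 228 ± 21.6 CPM in LO and 217 ± 11.1 CPM in SO oocytes (SD, n = 3 each), a log2 difference of 0.070 (SE 0.086).

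At the nuclear basket, NUP153 had 395, 397 and 313 CPM in LO libraries, against 304, 287 and 320 CPM in SO libraries. LO libraries 1 and 2 were above all SO libraries, and library 3 lay among them. Its log2 difference was 0.28 (SE 0.099), the largest positive one among nucleoporins, and did not pass (edgeR, adjusted p = 0.189). Without LO library 3 it was 0.37 with an adjusted p of 0.0104, and the alternatives reached 0.533. NUP50, the other basket member, averaged 202 ± 11.9 CPM in LO and 208 ± 12.2 CPM in SO oocytes, a log2 difference of -0.041 (SE 0.078).

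The inner ring ties the scaffold to the membrane and the channel. Its 5 members had log2 differences of -0.22 to 0.17 and a median of 0.069. NUP93, the hub of that ring, had 102, 100.1 and 85.3 CPM in LO libraries, against 111, 113 and 112 CPM in SO libraries. Every LO value was lower, that of library 3 the most, and the difference of -0.22 (SE 0.083) did not pass (edgeR, adjusted p = 0.215). Without LO library 3 the difference of NUP93 was -0.15 (SE 0.064). NUP155 stood on the other side, at 343 ± 39.2 CPM in LO and 305 ± 5.71 CPM in SO oocytes (log2 difference 0.17, SE 0.089). It was called without LO library 3 (adjusted p = 0.0242, with alternatives up to 0.639). NUP35, a small membrane-binding member, was the most abundant of the ring on the TPM scale, at a mean of 495 TPM, though not in CPM. It had 244, 257 and 279 CPM in LO and 238, 264 and 238 CPM in SO libraries. These overlapped, with LO library 3 highest, and the log2 difference was 0.076 (SE 0.080). The paralogs NUP205 and NUP188 differed by 0.069 and -0.081.

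The outer ring, whose Y-shaped complex also recruits pores to chromatin after division, had 6 members between -0.077 and 0.17, of which 5 were positive under each scaling tried (median 0.088). NUP160 averaged 160.2 ± 16.8 CPM in LO and 142 ± 1.45 CPM in SO oocytes, a log2 difference of 0.17 (SE 0.086). It was called without LO library 3 (adjusted p = 0.0260, with alternatives up to 0.627). NUP85 was the exception in sign, with 281, 284 and 293 CPM in LO libraries, against 296, 315 and 294 CPM in SO libraries. Its groups narrowly failed to overlap, and the log2 difference was -0.077 (SE 0.067). On the TPM scale members of this complex, which assembles in fixed proportions, ranged from 24.2 TPM (NUP43) to 409 TPM (NUP85), with NUP107 at 195, NUP133 at 119, NUP160 at 84.2 and NUP37 at 67.2 TPM.

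The central channel genes NUP62, NUP54 and NUP58, with NUP98, lay between 80.7 and 158 TPM, a narrower range of levels, and their log2 differences were -0.063 to 0.11. Without LO library 3 NUP98 differed by 0.18 (SE 0.072) in place of 0.042 (SE 0.13) and NUP62 by 0.079 (SE 0.079) in place of 0.014 (SE 0.094), and neither passed. NUP210, a membrane nucleoporin, averaged 10.7 TPM and differed by -0.027 (SE 0.11), and its paralog NUP210L by -0.029 (SE 0.24). None of these 6 had an unadjusted p under 0.05 in the test of all libraries.

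Library 3 of the LO group lay low across the family. Set against the mean of LO libraries 1 and 2, 36 of 44 members were lower in it (81.8%), with a median log2 deviation of -0.20. Over all genes tested 52.2% were lower, with a median of -0.018. NUP214 (-0.59), NUP98 (-0.50) and KPNA4 (-0.40) were lowest in it relative to that mean, and NUP210L (0.49) and NUP210 (0.25) highest. The median deviation of the members from the mean of all 6 libraries was 0.10, 0.035 and -0.11 in LO libraries 1, 2 and 3, and -0.0065, 0.0037 and 0.0013 in SO libraries 1, 2 and 3. The spread between replicates, with library 3 included, was wider in the LO group. The members' median SD of log2 CPM was 0.14 in LO, against 0.055 in SO oocytes. Over all genes at 5 CPM or more the median SD was 0.15 in LO and 0.070 in SO oocytes. How far library 3 alone accounts for the wider LO spread was not tested.

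**Figure D4:**
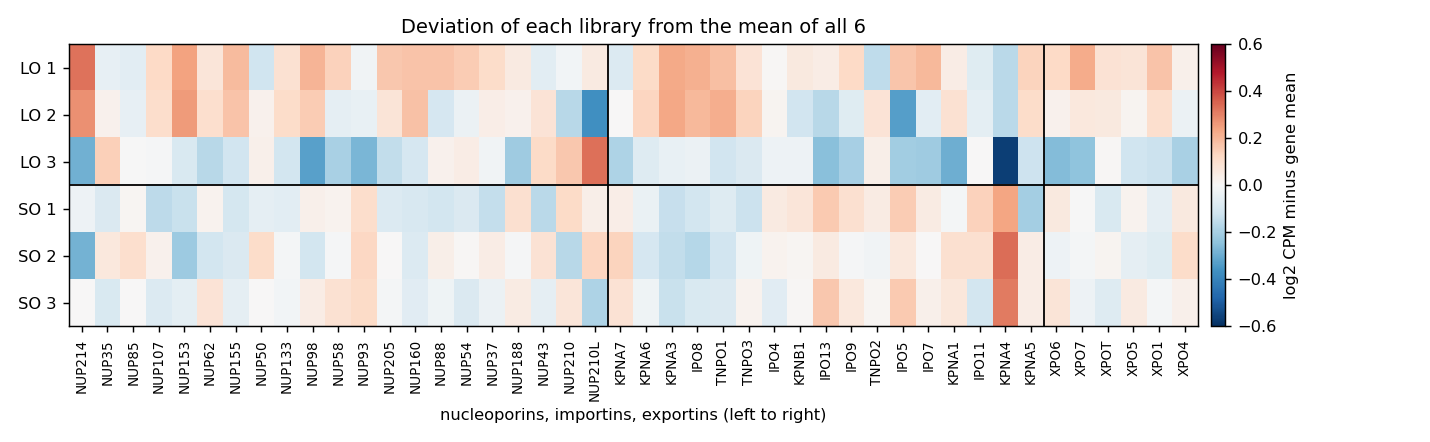
Log2 CPM of each member in each library minus that gene's mean over all 6 libraries (red above, blue below). The row of LO library 3 is mostly blue, and KPNA4 and KPNA3 are the columns where LO and SO rows differ most plainly.

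Other genes of the same machinery were read from 3 lists of 41 genes, of which 35 were found in the table and tested. None passed by edgeR, or by DESeq2 among the 34 it tested, and 9 (25.7%) had an unadjusted p under 0.05, beside 18% of all genes. Without LO library 3 edgeR called 9 of the 35, beside 13.2% of all genes. Among nucleoporins outside the naming rule, 9 of 13 listed were tested, with 6 positive differences (5 when scaled by library size alone) and a median of 0.088. These included RANBP2, the cytoplasmic filament protein (0.30, SE 0.11), TPR, the core of the basket (0.32, SE 0.11), and AHCTF1, which brings the outer ring to chromatin (0.25, SE 0.11). AAAS, a scaffold protein that causes triple A syndrome in humans when mutated, differed by -0.19 (SE 0.072). These 4 genes were called without LO library 3, with adjusted p of 0.0144, 0.0409, 0.0168 and 0.0470 in that order, and their alternatives reached 0.518 to 0.631.

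In the list for the Ran cycle and messenger export, 15 of 16 genes were tested, with 9 positive (7 when scaled by library size alone) and a median of 0.034. RAN had 70.0, 63.6 and 74.2 CPM in LO libraries, against 75.7, 84.8 and 75.3 CPM in SO libraries. All LO values were lower, and the log2 difference of -0.19 (SE 0.088) did not pass (edgeR, adjusted p = 0.295). RANGAP1, which makes Ran hydrolyse GTP in the cytoplasm, differed by -0.27 (SE 0.10), and RCC1, which reloads Ran with GTP on chromatin, by 0.12 (SE 0.10). CSE1L, the exportin that returns importin alpha to the cytoplasm, differed by -0.11 (SE 0.086). RANGAP1 and NXT1, a cofactor of messenger export, were called lower without LO library 3, with adjusted p of 0.0192 for each and alternatives up to 0.536 and 0.613.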

How the data were processed

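The authors deposited 1 table with whole-number read counts per gene, not normalised, and TPM values for each library. The deposited TPM values sum to 1000000 in each library. The submitters' processing notes name the pig assembly Sscrofa11.1. Which aligner, counter, annotation release and strand setting the authors used is not stated, so the 18 members whose RefSeq position overlaps another gene may share reads with it. RefSeq positions are those of the same assembly, matched by symbol.

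Rows bearing a date as name (25, with a mean of 0.153% of reads) were left out. Of 4604 rows with an Ensembl identifier, 853 received a symbol that no other row had. Groups were compared with edgeR 4.0.16 in R 4.3.3 (quasi-likelihood F test, robust fit, TMM factors, genes kept by filterByExpr, group as the only term) over all 6 libraries and 14091 genes, at a Benjamini-Hochberg adjusted p under 0.05. The SE was recovered from each gene's log2 difference and F statistic. CPM use TMM-scaled library sizes, and deviations use log2 CPM with a prior count of 2. Alternatives used DESeq2 1.42.0 and limma 3.58.1. The fits were also run on simulated counts with equal spread in both groups. The groups here differed in spread, so that run does not vouch for the calls given here. Counts of replicates differed beyond sampling noise, with a chi-square of 10.6 to 22.1 for each degree of freedom.

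The members and gene lists were chosen with earlier results of these data known. Values in every library are given for NUP214, KPNA7, KPNA2, KPNB1, RAN, the 3 members with the highest TPM in each class and the 8 members with the smallest p. Other members are given by mean, difference or range, and a gene called only without 1 library was named after its values were seen. Some genes of the wider lists are not reported here by name.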

Additional observations from a re-analysis of the deposited data

How the results depend on the processing

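The count of genes called, 9 by edgeR, moved under every alternative: it was 0 with DESeq2's size factors, 14 with library size alone, 679 by DESeq2's Wald test, 52 with no filter, 19 at a mean of 5 CPM or more, 0 by limma on log2(TPM + 0.5) and 24 under a replicate block. Leaving out 1 library gave 0 to 1899 genes. At an unadjusted p under 0.05 the settings with 0 calls had 1448 to 2525 genes. The count of members called, 0, was 2 by DESeq2, 0 to 8 on leaving out 1 library, and 0 in the other alternatives. The count of other pathway genes called, 0, was 0 to 9 on leaving out 1 library, and 0 in the other alternatives. All calls of members and pathway genes with 1 library left out came without LO library 3. The members' median difference of 0.028 ran from -0.026 (library size alone) to 0.045 (without SO library 3). The pooled SD of the members' median between replicates was 0.077, but the groups were unlike, with 0.11 in LO and 0.0054 in SO libraries. Of 234 values for the 18 genes given by library, 223 kept direction and side of the threshold, 8 passed, and 3 changed sign: XPO6 was 0.030 without LO library 3 (-0.14 to 0.030 over libraries left out), and XPO7 was -0.0061 with library size alone and -0.058 without LO library 1 (-0.058 to 0.15). The cause was not tested. Same-numbered libraries did not deviate together (correlations -0.095, 0.0028 and -0.16 for numbers 1, 2 and 3), so the numbers were not taken as pairs. Depth limits KPNA4 most among the genes given by library, with 82 reads in LO library 3.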

Other observations

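The nuclear lamina and inner nuclear membrane, to which pores are anchored, gave 11 tested genes of 12 listed, with 6 positive differences (5 when scaled by library size alone) and a median log2 difference of 0.019 (large minus small follicles). None passed by edgeR or was called by DESeq2, and 3 of the 11 had an unadjusted p under 0.05, beside 18% of all genes. SUN2, which joins the inner membrane to the cytoskeleton, was far the most abundant at 1381 ± 138 TPM in LO and 1516 ± 101 TPM in SO oocytes (SD, n = 3 each), rank 47 of all rows. Its log2 difference was -0.13 (SE 0.085). The lamin genes had differences of 0.16 (LMNB1, SE 0.071), 0.24 (LMNB2, SE 0.093) and -0.18 (LMNA, SE 0.094), and LBR, the lamin B receptor, one of -0.23 (SE 0.078). None of these 4 passed with all libraries. Without LO library 3 edgeR called 3 genes of this list (beside 13.2% of all genes), with LMNA at -0.29 (adjusted p = 0.0221), BANF1, which binds DNA to the envelope, at -0.50 (adjusted p = 0.00716) and SYNE2, which spans the outer membrane, at 0.47 (adjusted p = 0.0278). BANF1 had -0.23 (SE 0.19) and SYNE2 0.37 (SE 0.13) with all libraries, and over the alternatives the adjusted p of LMNA, BANF1 and SYNE2 reached 0.669, 0.861 and 0.546.

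NUP62CL, listed by an Ensembl identifier, stood at 0.116 ± 0.0174 TPM in LO and 0.120 ± 0.132 TPM in SO oocytes.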
